A study of Arabidopsis thaliana with 6 samples.

Results

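Transcripts of 4 genes of greening were followed in young leaves of Arabidopsis at the end of the night, in the wild type Ws and in plants carrying a T-DNA insertion in bZIP63. The genes were PORB (AT4G27440, probe set 253871_at), GLK2 (AT5G44190, 249035_at), SIG1 (AT1G64860, 262879_at) and SIG3 (AT3G53920, 251929_at), on chromosomes 4, 5, 1 and 3. The platform annotation ties 13286 genes to a locus, PORB among them, while GLK2, SIG1 and SIG3 were tied to their probe sets by the supplement of the study. The 4 genes were selected on their measured values in the contrast described here, Ws against bzip63-2. Their levels and differences are therefore a description with no test.

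Expression was read on 6 ATH1 arrays of Affymetrix, with 3 for Ws and 3 for bzip63-2, a T-DNA line in the Ws background also named H3-2 (FLAG_610A08). Each array carried RNA from 1 pool of 5 plants raised on soil and vermiculite at 22 °C, with 10 h of light and 14 h of darkness, to 25 days after germination, and the 4 youngest leaves of each plant were taken. The methods of the study add the shoot apical meristem to this sample. There is 1 mutant line, so an effect of the gene and of that line cannot be told apart.

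Chlorophyll is made in the plastid by enzymes encoded in the nucleus. Protochlorophyllide oxidoreductase (POR) carries out the step that needs light, the reduction of protochlorophyllide to chlorophyllide, and PORB is a form that green leaves keep. GLK2 encodes a transcription factor of the GARP family that acts with its close relative GLK1 to switch on nuclear genes of chlorophyll synthesis and light harvesting. Sigma factors are nucleus-encoded proteins that lead the bacterial-type RNA polymerase of the plastid (PEP) to its promoters. Among them, SIG3 is needed for transcription of psbN, and SIG1 is associated with transcription of photosystem I genes.

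The unit throughout is the log2 value that RMA gives for a probe set, so a difference of 1 is a factor of 2. The lowest value, 2.47, acts as a floor, and each array had 39.4% to 42.2% of its probe sets no more than 0.05 above it. Array medians ran from 2.61 to 2.62. Arrays of Ws correlated with each other at 0.993 to 0.994 and those labelled bzip63-2 at 0.995 to 0.996. For bZIP63 itself the probe set read 5.32 to 5.91 in Ws and 8.55 to 8.78 under the label bzip63-2, so its signal was higher there. Whether intact bZIP63 transcript was higher or lower there was not tested. Whether this probe set lies up- or downstream of the insertion was not known, so it does not settle the labels, and each direction below rests on them. The leaf markers RCA and PRK, of Rubisco activation and the Calvin cycle, stood at 11.5 to 11.8 and 9.09 to 9.45, and were 2 of 6 leaf markers with a name, with a summed level above the floor of 15.7 to 16.0 in Ws and 15.9 to 16.3 in the arrays labelled bzip63-2. The meristem marker CLV3, 1 of 6 with a name, stayed at the floor on all 6 arrays.

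PORB had the widest gap between genotypes of the 4 genes. Its log2 values were 6.31, 6.35 and 6.33 in Ws replicates 1 to 3 and 7.09, 6.96 and 7.04 in the replicates 1 to 3 labelled bzip63-2. All arrays labelled bzip63-2 lay above all Ws arrays, with a gap of 0.61 between the nearest arrays, and both groups were tight. Ws averaged 6.33 ± 0.02 (SD, n = 3) and bzip63-2, by its label, 7.03 ± 0.07 (SD, n = 3). They were 0.70 apart on the log2 scale (standard error 0.04 from limma), or 1.63-fold. The pooled SD within genotypes was 0.051, against a median of 0.114 for the 8242 probe sets whose mean exceeded 3. Only 9.84% of those probe sets had a smaller SD. In pooled leaves, here and for each gene below, more transcript per cell and more cells that carry it cannot be told apart.

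GLK2 varied more between arrays of a genotype. Its log2 values were 4.15, 4.60 and 4.44 in Ws and 4.82, 4.69 and 5.01 in the arrays labelled bzip63-2. The groups did not touch, but Ws replicate 2 was only 0.09 below bzip63-2 replicate 2. Within Ws the values spanned 0.45, about the size of the difference between genotypes. That difference was 0.44 (standard error 0.15), or 1.36-fold, between means of 4.40 ± 0.23 (SD, n = 3) and 4.84 ± 0.16 (SD, n = 3).

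**Figure D1:**
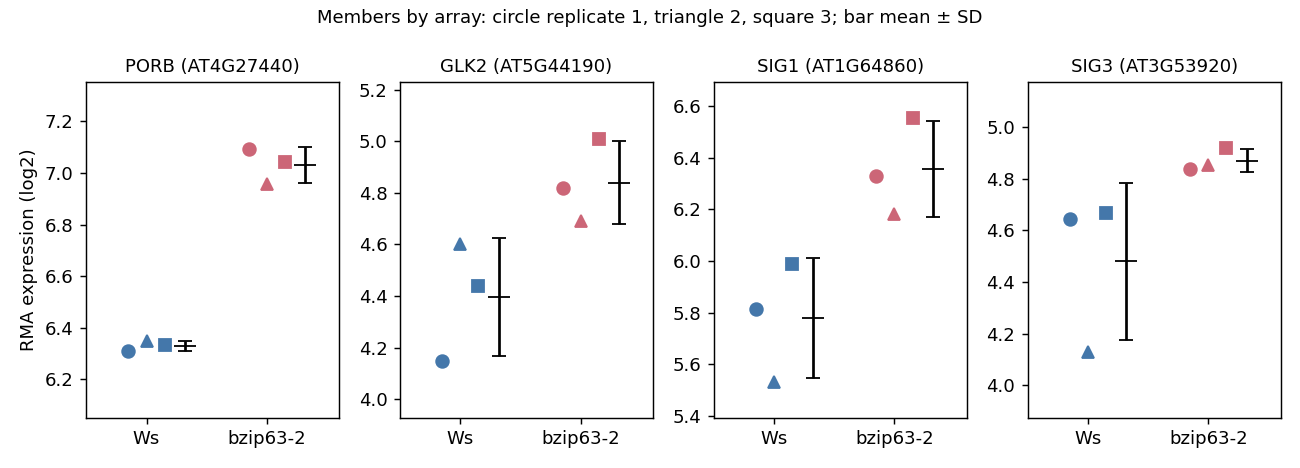
RMA expression (log2) of PORB, GLK2, SIG1 and SIG3 on each of the 6 arrays, with Ws in blue, bzip63-2 in red, a marker shape for each replicate number and the mean ± SD (n = 3) beside the points; every panel spans the same number of log2 units. The red points lie above the blue points in all 4 panels, with a gap of 0.61 for PORB and 0.09 for GLK2.

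Both sigma factor genes had a low Ws replicate 2. SIG1 had log2 values of 5.82, 5.53 and 5.99 in Ws and 6.33, 6.18 and 6.56 in the arrays labelled bzip63-2, so the nearest arrays were 0.19 apart. Ws replicate 2 was the lowest array and bzip63-2 replicate 3 the highest. The means of 5.78 ± 0.23 (SD, n = 3) and 6.36 ± 0.19 (SD, n = 3) differed by 0.58 (standard error 0.16), or 1.49-fold.

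SIG3 had log2 values of 4.65, 4.13 and 4.67 in Ws and 4.84, 4.85 and 4.92 in the arrays labelled bzip63-2. The arrays labelled bzip63-2 lay within 0.08 of each other, and Ws replicates 1 and 3 were 0.17 or more below them. Ws replicate 2 stood 0.35 under the mean of its group and carried much of the difference. The means of 4.48 ± 0.31 (SD, n = 3) and 4.87 ± 0.04 (SD, n = 3) were 0.39 apart (standard error 0.17), or 1.31-fold. Without Ws replicate 2 the log2 difference was 0.21, whereas that of GLK2 was then 0.55.

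Inside a genotype, the arrays that were high or low were not the same for all 4 genes. Ws replicate 2 was the lowest Ws array for SIG1 and SIG3 and the highest for PORB and GLK2. In the arrays labelled bzip63-2, replicate 3 was highest for GLK2, SIG1 and SIG3, and replicate 1 for PORB. Likeness was measured as the root mean square distance between profiles over the 6 arrays, each centred on its own mean. By this measure SIG1 and SIG3 were the nearest pair of members, at 0.15, and GLK2 and SIG3 the farthest, at 0.30. Pooled SDs of GLK2, SIG1 and SIG3 were 0.20, 0.21 and 0.22, larger than in 88.0%, 90.6% and 91.8% of the probe sets with a mean above 3.

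For all 4 genes the lowest array labelled bzip63-2 exceeded the highest Ws array, and so it did for 14.9% of the 8242 probe sets whose mean exceeded 3. For a further 6.22% of them bzip63-2 was lower without overlap. A log2 difference larger than that of PORB was found for 43 of these probe sets, and larger than those of SIG1, GLK2 and SIG3 for 79, 173 and 266. Since the genes were selected on this contrast, nothing is read from these counts.

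A search for genes with a similar profile covered 4191 other genes with a platform locus and a mean above 3. For PORB the nearest were SDRB (AT3G12800, distance 0.08), a short-chain dehydrogenase-reductase gene, scpl35 (AT5G08260, 0.10), a serine carboxypeptidase-like gene, and AT2G41250 (0.11). SDRB had log2 values of 4.28, 4.34 and 4.44 in Ws and 4.98, 5.05 and 5.001 in the arrays labelled bzip63-2, so it shared the step between genotypes and the tight groups. For GLK2 the nearest were AT1G35420 (0.06), AT1G18460 (0.06) and AT5G16110 (0.07). AT1G18460 had 4.01, 4.54 and 4.42 in Ws and 4.64, 4.53 and 4.95 in the arrays labelled bzip63-2. There, as for GLK2, Ws replicate 1 was the lowest array and bzip63-2 replicate 3 the highest, although Ws replicate 2 and bzip63-2 replicate 2 overlapped.

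For SIG1 the nearest profiles were those of AT5G23920 (0.08), AT1G52870 (0.10) and AT1G06650 (0.10). For SIG3 they were AT4G30620 (0.05), AT5G27560 (0.05) and AT1G10660 (0.06). AT4G30620 had 5.15, 4.74 and 5.28 in Ws and 5.43, 5.33 and 5.50 in the arrays labelled bzip63-2. Ws replicate 2 was the lowest array for all 3 genes nearest to SIG3, as it was for those nearest to SIG1. These genes were picked for their likeness, so the shared low array follows from the search and is no finding. Their differences between genotypes carry no test.

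**Figure D2:**
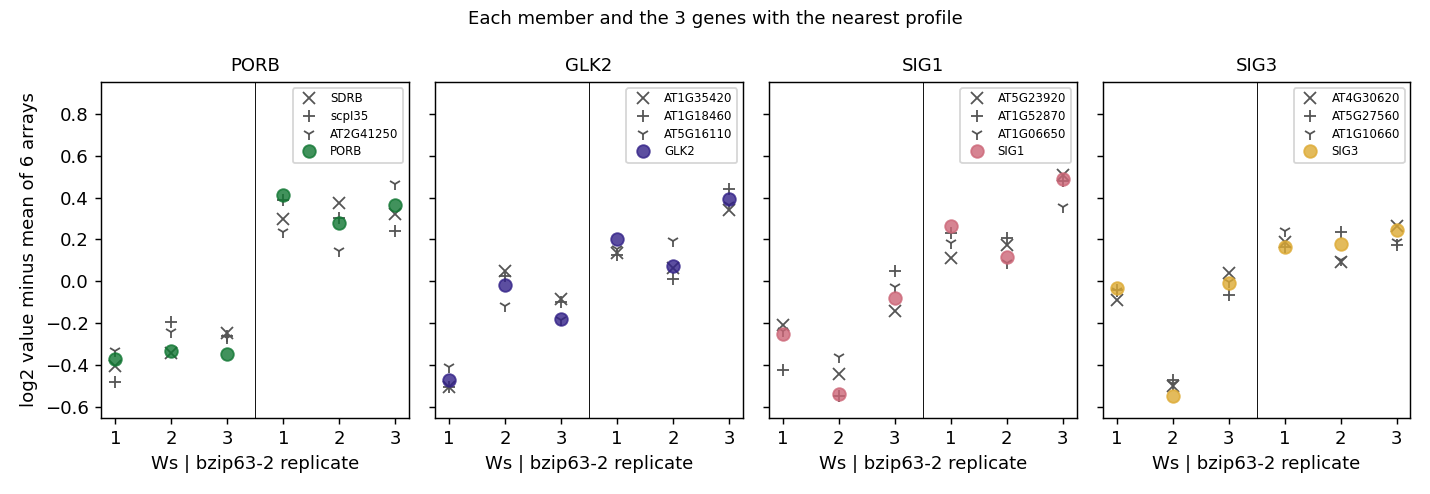
Log2 values of each member (coloured circles) and of the 3 genes with the nearest profile (grey symbols) on the 6 arrays, each minus the mean of its gene over the 6 arrays. PORB shows a step between genotypes with tight groups, GLK2 a low Ws replicate 1, and SIG1 and SIG3 a low Ws replicate 2.

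The other genes around the members were compared between genotypes with limma, with Benjamini-Hochberg adjustment over all 22746 probe sets. None passed an adjusted p under 0.05 (0.0%), while 6.37% reached an unadjusted p under 0.05. Restricted to means above 3, limma called 28 higher and 29 lower, or 0.692% of 8242. With 3 arrays a group, exact permutation reaches no p below 0.10 for any gene. Lists of 111 nuclear genes of chlorophyll synthesis and breakdown, light harvesting, plastid transcription and greening regulation were used. Of these, 17 had a probe set named by the platform annotation, 6 were named only by the supplement of the study, and 88 were not analysed here, among them PORA, PORC, GLK1 and the other sigma factor genes.

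Chlorophyll synthesis had 10 named genes of 32, of which 8 had a mean above 3. The median log2 difference of the 10 was 0.03, beside 0.0 over all 22746 probe sets and 0.03 over the 8242 with a mean above 3. The difference was above 0 for 8 of the 10, and for 6 after repeated quantile normalization. Of the 8242 probe sets with a mean above 3, 60.75% were above 0, and 4010 of them after repeated quantile normalization. None of the 10 was called by limma, whether dim probe sets were kept or not. The unadjusted p from limma was under 0.05 for 2 of them, GSA1 and HEME1, both with a mean above 3. Of the 8242 probe sets with a mean above 3, it was so for 837 higher and 357 lower ones. Over all probe sets it was so for 6.37%, and nothing is read from the 2. GSA1, which makes aminolevulinate, the first precursor particular to the pathway, had 5.23, 5.28 and 5.28 in Ws and 5.44, 5.39 and 5.35 in the arrays labelled bzip63-2. Its log2 difference was 0.13 (standard error 0.03, adjusted p = 0.51 from limma). HEME1, a uroporphyrinogen decarboxylase gene, had 5.43, 5.64 and 5.44 in Ws and 5.74, 5.74 and 5.66 in the arrays labelled bzip63-2. The nearest arrays were 0.02 apart and the difference was 0.21 (standard error 0.07, adjusted p = 0.74 from limma). CHLP, which makes the phytol tail of chlorophyll, had means of 10.2 ± 0.08 (SD, n = 3) and 10.4 ± 0.07 (SD, n = 3) in Ws and bzip63-2, with an adjusted p of 0.74 from limma. These were the 3 genes of the 10 without overlap, all with bzip63-2 higher. All 3 were among the 8 with a mean above 3, for which the like share over the array is the 14.9% given above.

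The remaining genes of the pathway lay closer to 0. HEMB1, aminolevulinate dehydratase, differed by 0.03 (standard error 0.13), CHLI2, a magnesium chelatase subunit, by 0.00 (standard error 0.06), and CHLM, which methylates magnesium protoporphyrin, by 0.04 (standard error 0.04). HEMA2, a glutamyl-tRNA reductase gene, was at the lower end of the list with -0.01 (standard error 0.08). PORB, with 0.70, was thus outside the range of -0.01 to 0.21 of the other named genes of the pathway, though it was chosen for its difference and they were not. HEMA3 and HEMB2 were near the floor.

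**Figure D3:**
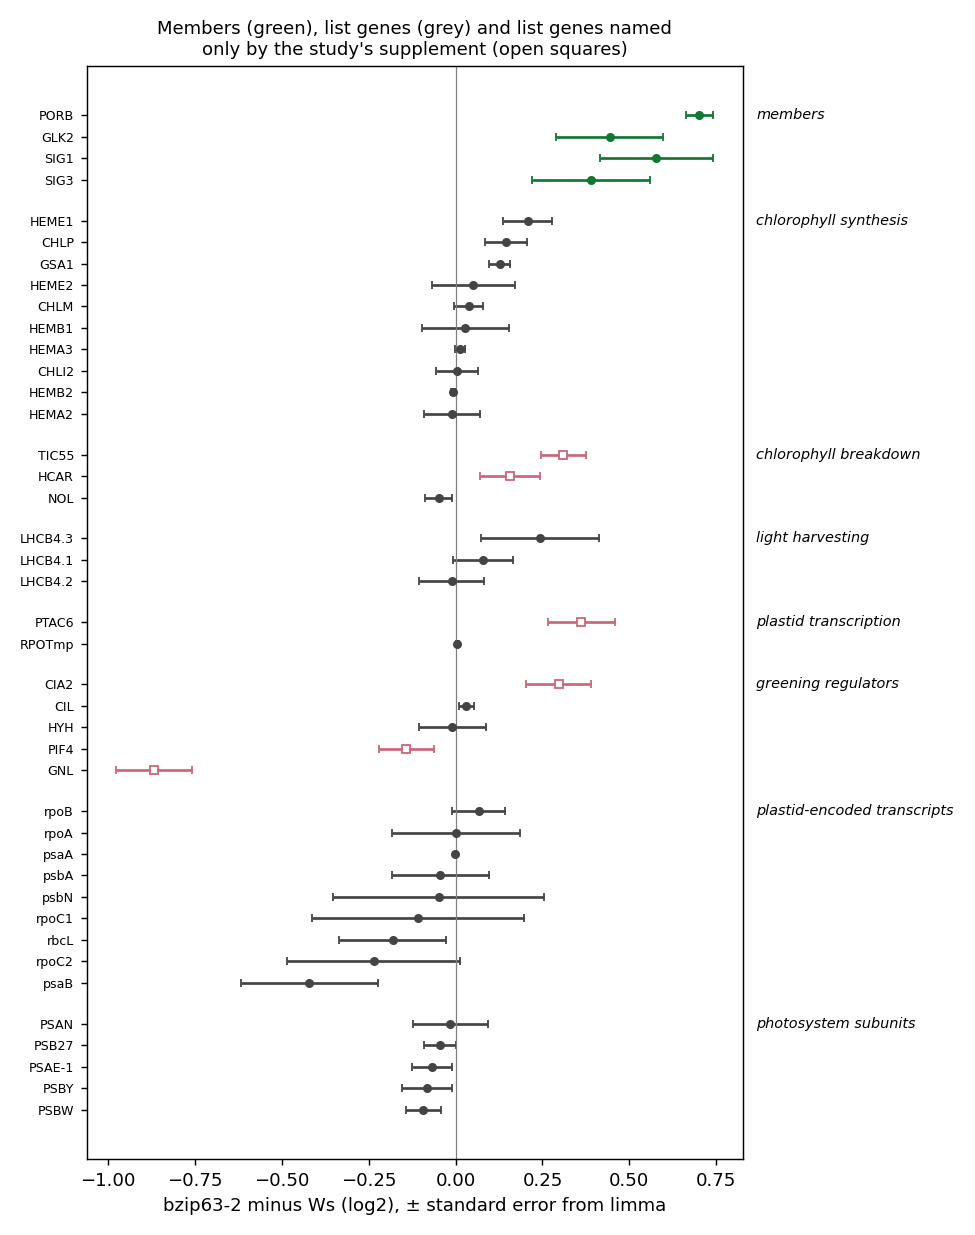
Log2 difference of bzip63-2 minus Ws with its standard error from limma (3 arrays a group), for the 4 members (green), the list genes with a platform name (grey) and list genes named only by the supplement of the study (open squares), grouped by role. The members lie between 0.39 and 0.70, the named chlorophyll synthesis genes between -0.01 and 0.21, and GNL at -0.87.

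Among genes that GLK factors are known to act on, the light harvesting genes had 3 named members of 21. LHCB4.1, LHCB4.2 and LHCB4.3 encode forms of the minor antenna protein CP29 of photosystem II. LHCB4.1 and LHCB4.2, at means of 10.6 and 9.16 in Ws, differed by 0.08 (standard error 0.09) and -0.01 (standard error 0.09). LHCB4.3 had 5.64, 5.65 and 5.19 in Ws and 5.58, 5.73 and 5.90 in the arrays labelled bzip63-2, so its groups overlapped, and its difference of 0.24 (standard error 0.17) had an adjusted p of 0.74 from limma. A further 5 nuclear photosystem genes, PSAE-1, PSAN, PSB27, PSBW and PSBY, were added after the values were seen. Their differences ran from -0.09 to -0.02, with overlap for each, and none was called by limma.

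Of the 25 other regulators of greening listed, 2 had a platform name and 3 were named only by the supplement of the study. GNL (AT4G26150), a GATA factor that promotes greening, had 4.71, 5.03 and 5.05 in Ws and 4.01, 4.06 and 4.104 in the arrays labelled bzip63-2. All arrays labelled bzip63-2 were below all Ws arrays, with a difference of -0.87 (standard error 0.11). It was not called over all probe sets (adjusted p = 0.28 from limma) and was called without dim ones (adjusted p = 0.019 from limma). CIA2, which promotes genes of protein import into plastids, differed by 0.30 (standard error 0.09) and PIF4, a phytochrome-interacting factor gene near the floor, by -0.14 (standard error 0.08). GNL, CIA2 and PIF4 were named only through the supplement of the study and may have been chosen on these arrays. Their directions and p-values are therefore not taken as independent, and the call of GNL is no finding. The groups of PIF4 overlapped (unadjusted p = 0.14 from limma). Of the genes with a platform name, HYH, a bZIP factor of light signalling, was level, at 5.32 ± 0.16 (SD, n = 3) and 5.31 ± 0.07 (SD, n = 3) in Ws and bzip63-2. CIL was near the floor.

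In plastid transcription, PTAC6, a protein attached to PEP, had 5.23, 5.10 and 4.94 in Ws and 5.57, 5.41 and 5.38 in the arrays labelled bzip63-2. Its groups did not overlap, and its difference was 0.36 (standard error 0.10). It too was named only through the supplement and may have been chosen on these arrays. RPOTmp, a nucleus-encoded phage-type polymerase and the sole gene of the list with a platform name, stayed at the floor. On the breakdown side, TIC55, which modifies chlorophyll catabolites at the inner envelope, differed by 0.31 (standard error 0.07) and HCAR, which acts on chlorophyll b on its way to chlorophyll a, by 0.16 (standard error 0.09). Both were named only through the supplement and may have been chosen on these arrays, although the groups of HCAR overlapped. NOL, a chlorophyll b reductase gene with a platform name, differed by -0.05 (standard error 0.04).

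Transcripts encoded in the plastid genome had 9 named members of 9, of which 7 had a mean above 3. Which polymerase makes each of them was not measured, and the list is not taken as a set of PEP products. None of the 9 was called by limma, and the genotypes overlapped for each of the 7. How fully these arrays capture plastid transcripts was not tested, so the values are not read as their abundance. The median difference of the 9 was -0.05, beside 0.0 over all probe sets and 0.03 over those with a mean above 3. The psaA probe set read 2.63 on all 6 arrays, near the floor, and gives no information on that transcript. The psbN transcript had 4.27, 4.56 and 4.95 in Ws and 5.01, 4.14 and 4.48 in the arrays labelled bzip63-2, so all Ws arrays lay inside the range of the others, with a difference of -0.05 (standard error 0.30). The largest difference was that of psaB, of the photosystem I reaction centre, with 8.77, 8.62 and 8.91 in Ws and 8.63, 8.42 and 7.99 in the arrays labelled bzip63-2, or -0.42 (standard error 0.20, adjusted p = 0.74 from limma), and a single pair of arrays overlapped. The PEP core subunit genes rpoA, rpoC1 and rpoC2 differed by 0.00, -0.11 and -0.24, with standard errors of 0.18, 0.30 and 0.25, and rpoB, at 0.07 (standard error 0.08), was near the floor. With standard errors of 0.30, a difference as small as that of SIG3 could not be resolved in psbN or rpoC1.

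Arrays of a genotype differed in these transcripts. Of the 7 plastid-encoded transcripts with a mean above 3, 5 were lowest among the Ws arrays in replicate 2 and 6 were highest in replicate 3, which were also the lowest and the highest Ws arrays for SIG1 and SIG3. In the arrays labelled bzip63-2, 5 of the 7 were lowest in replicate 3, the array in which SIG1 and SIG3 were highest, and 6 were highest in replicate 1.

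**Figure D4:**
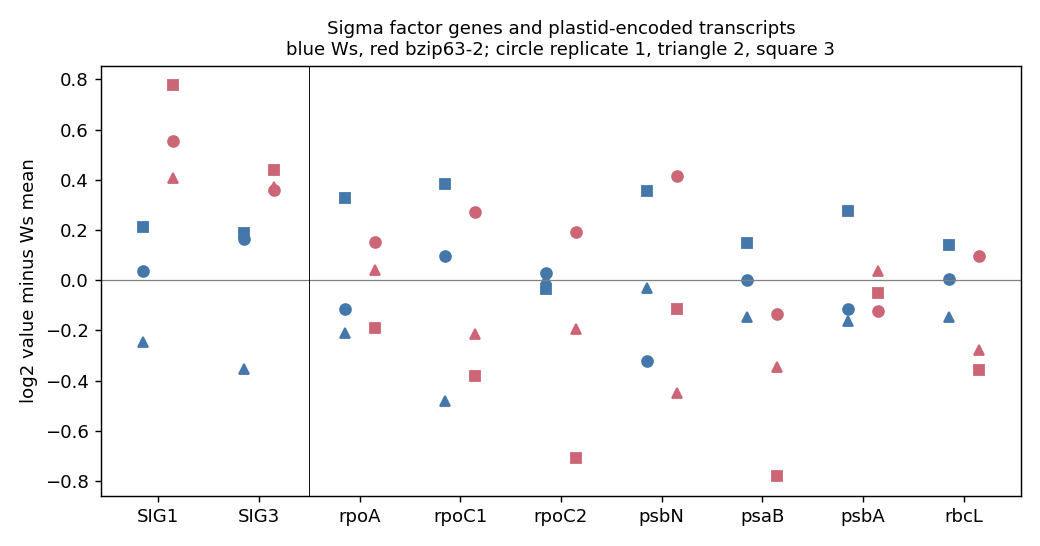
Log2 values of SIG1, SIG3 and the 7 plastid-encoded transcripts with a mean above 3 on each array, minus the Ws mean of the gene, with Ws in blue, bzip63-2 in red and a marker shape for each replicate number. The genotypes separate for SIG1 and SIG3 and overlap for all 7 plastid transcripts.

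Markers of other tissues or states moved in part with the genotypes. The root marker PYK10, the sole one of 5 named here, had 3.25 to 3.84 in Ws and 4.53 to 4.95 in the arrays labelled bzip63-2. Its adjusted p was 0.37 from limma over all probe sets and 0.037 without dim ones. Of the 5 markers of senescing leaves, ORE1 and WRKY53 were named. ORE1 was named only through the supplement and may have been chosen on these arrays. The summed level of ORE1 and WRKY53 above the floor was 0.50 to 0.54 in Ws and 1.13 to 1.63 in the arrays labelled bzip63-2. WRKY53 had an adjusted p of 0.33 from limma, and of 0.038 without dim probe sets. Of the 2 leaf markers, PRK was without overlap and higher in the arrays labelled bzip63-2, by 0.01 at the nearest arrays, with a difference of 0.17 (standard error 0.07), and RCA overlapped, with 0.07 (standard error 0.09). The part of these markers in the values of the members was not tested.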

How the data were processed

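The study hybridised 6 ATH1 arrays, 3 per genotype. Per the submitters' processing notes, the deposited values are RMA output of Affymetrix Expression Console (version not given in the sources used here). A log2 scale of the deposited table was inferred from its range. RMA equalises the arrays, so a shift shared by all genes is lost, and its floor compresses differences of dim probe sets.

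The comparison of genotypes used limma 3.58.1 (R 4.3.3; lmFit, then eBayes), with genotype as the sole term, on 22746 probe sets (64 controls left out), with Benjamini-Hochberg adjustment and a threshold of 0.05. Standard errors are the moderated ones of limma. The fit was tested on simulated data. Names came from the platform annotation and RefSeq TAIR10.1: 13513 have 1 gene, 503 several and 8730 are not listed. GLK2, SIG1, SIG3, ORE1 and 6 nuclear list genes were named through the probe set codes of the supplement, whose values were not used. Supplement-named genes were left out of list counts.

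The members and lists were chosen with earlier results of these data known. The rule for named genes took the members; genes set by role (the other POR, GLK and sigma factor genes, key steps of the pathway, GNC, GNL, HY5, psbN and psaA), of which only GNL, psbN and psaA had a named probe set and the rest were not analysed here; list genes called with or without dim probe sets; the ends of each list's range; and the 3 nearest profiles per member. Other list genes in the text were picked after their values were seen. The brightest probe set stood for a gene. The labels call the pools biological replicates without saying whether they were grown apart, so p-values measure the spread between these pools only. Alternatives changed the threshold, dim filter, prior, weights, scaling, probe set choice, replicate block and arrays included. Sequences were not used here.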

Additional observations from a re-analysis of the deposited data

How the results depend on the processing

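The members' differences kept their sign under repeated quantile normalization, median centring and each array left out, with 0.67 to 0.74 for PORB, 0.32 to 0.55 for GLK2, 0.45 to 0.68 for SIG1 and 0.21 to 0.48 for SIG3 over the arrays left out; the lowest value of SIG3, against 0.39 with all arrays, was that without Ws replicate 2. The number of probe sets called by limma was 0 in the planned fit and also with a trend or robust prior, array weights, repeated quantile normalization, controls kept, and multi-gene probe sets dropped. It was 28 with only the probe sets above the median brightness, 57 without means of 3 or less, 108 without means of 4 or less, 4 with arrays centred on the median, 4 at an adjusted p under 0.10 and 1449 at an unadjusted p under 0.05; with an array left out it was 0 to 34, the highest without Ws replicate 3. The cause was not tested. Calls among the platform-named genes of the role lists stayed at 0 in each of these apart from the unadjusted threshold, with 2. Of the 9 plastid transcripts, 0 were without overlap, and 0 to 3 with an array left out. The count was 1 without Ws replicate 2 and 3 without bzip63-2 replicate 1. Of the 17 nuclear list genes, 3 to 4 were without overlap. With all arrays, 14.9% of the probe sets with a mean above 3 were higher without overlap and 6.22% lower. The shares with an array left out are not given here, so nothing is read from those counts. Medians of the lists shifted by less than the median pooled SD of their genes. Over the arrays left out they ran from 0.01 to 0.05 for nuclear and -0.28 to 0.08 for plastid genes. The plastid median, -0.05 with all arrays, was -0.28 without bzip63-2 replicate 1 and changed sign to 0.08 without Ws replicate 3. With the replicate number as a block, 0 probe sets were called. Deviations of each array from its genotype mean, across 8242 probe sets, correlated at -0.04, 0.02 and 0.05 between same-numbered arrays. Differently numbered pairs ran from -0.10 to 0.10. The block changed the standard error of SIG1 from 0.16 to 0.04. For PORB it went from 0.04 to 0.05, for GLK2 from 0.15 to 0.16 and for SIG3 from 0.17 to 0.15. Whether same-numbered arrays shared a batch was not tested. Promoter motifs and protein identity were not run.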
